A study of Mus musculus with 4 samples.

Results

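Mast cells and basophils were sought among the single bone marrow cells of 4 libraries by the proteases that fill their granules. Cells were chosen by these UMI counts, so that a cell entered when the genes Prss34, Mcpt8, Cma1, Tpsb2 and Mcpt4 together gave at least 0.5% of its UMIs (unique molecular identifiers, 1 per captured transcript). It was called mast-like when Cma1, Tpsb2 and Mcpt4 together had more UMIs than Prss34 and Mcpt8, and basophil-like otherwise. Of 15421 cells kept after filtering (at least 500 UMIs and at most 20% of UMIs from mitochondrial genes), 319 were chosen, 115 mast-like and 204 basophil-like. The 5 proteases therefore define the cells, and their levels are given below as a description. Every other gene was read from the same cells, so no contrast between the classes, or of a class with the rest, was tested.

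The cells came from C57BL/6 mice and were labelled as sorted for absence of lineage markers and presence of Sca1 and cKit (LSK), the gate that holds stem and multipotent progenitor cells. The labels give 4 groups with 1 inDrop library each: wild-type (WT) mice without and with imatinib, and mice with chronic myeloid leukaemia (CML) without and with it. Imatinib blocks ABL, including the BCR-ABL fusion of CML, and also KIT and the PDGF receptors. The dose was 400 mg/kg every other day by gavage. The protocol states 30 days and another label states 4 weeks, and the same protocol text also stands on the untreated samples. The labels used here do not give the CML model, its transgene, the age of the mice or the number of mice pooled. With 1 library per group no difference between groups has a replicate check, and all intervals below are 95% intervals that cover counting error only.

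Mast cells and basophils are granulocytes that bind IgE through the high-affinity receptor FcεRI and release histamine, proteases and lipid mediators when it is crosslinked. Mast cells depend on the receptor tyrosine kinase KIT and mature in tissues, whereas basophils mature in the marrow, circulate and lose KIT. Both arise from myeloid progenitors that express the transcription factor Gata2, and basophil numbers are raised in CML in patients.

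The proteases lie in 2 gene clusters of the GRCm38 build (GENCODE vM21). Cma1, Mcpt4, Mcpt8 and Gzmb fall within chr14:55941451-56262260, and Prss34, Tpsab1, Tpsb2 and Tpsg1 within chr17:25298394-25374442. Each cluster thus holds both a basophil gene (Mcpt8, Prss34) and mast cell genes (Cma1, Tpsb2) that are used here to tell the classes apart. The 250 bases before the RefSeq transcription start are shown for Prss34, Mcpt8 and Cma1 of the rule. They are also shown for Cpa3 and Fcer1a, which serve to check it. Tpsb2 and Mcpt4, also in the rule, are not shown. The sequences are taken from RefSeq on GRCm38.p6 and read 5′ to 3′ on the strand of the gene. Capitals mark AGATAA on either strand, a sequence that GATA factors can bind.
Prss34, chr17:25298144-25298393, plus strand: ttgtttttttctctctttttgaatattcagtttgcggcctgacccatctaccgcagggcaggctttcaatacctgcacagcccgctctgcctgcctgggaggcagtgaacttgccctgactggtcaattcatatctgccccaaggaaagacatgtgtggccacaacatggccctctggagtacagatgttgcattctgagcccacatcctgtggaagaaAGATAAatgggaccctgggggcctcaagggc
Mcpt8, chr14:56085198-56085447, minus strand: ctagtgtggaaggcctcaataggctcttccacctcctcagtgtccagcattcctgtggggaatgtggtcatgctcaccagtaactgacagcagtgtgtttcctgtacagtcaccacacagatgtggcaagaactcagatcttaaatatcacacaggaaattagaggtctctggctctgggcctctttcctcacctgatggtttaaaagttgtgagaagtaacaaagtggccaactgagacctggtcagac
Cma1, chr14:55944676-55944925, minus strand: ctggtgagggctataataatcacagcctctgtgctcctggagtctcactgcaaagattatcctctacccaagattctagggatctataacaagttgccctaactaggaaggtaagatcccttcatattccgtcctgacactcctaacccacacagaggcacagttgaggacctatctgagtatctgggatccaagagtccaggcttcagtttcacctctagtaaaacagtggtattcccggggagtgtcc
Cpa3, chr3:20242182-20242431, minus strand: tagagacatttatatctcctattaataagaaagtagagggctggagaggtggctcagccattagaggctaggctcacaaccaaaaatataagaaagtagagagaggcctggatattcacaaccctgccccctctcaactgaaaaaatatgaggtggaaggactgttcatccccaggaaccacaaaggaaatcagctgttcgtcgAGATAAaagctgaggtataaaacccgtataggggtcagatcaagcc
Fcer1a, chr1:173227230-173227479, minus strand: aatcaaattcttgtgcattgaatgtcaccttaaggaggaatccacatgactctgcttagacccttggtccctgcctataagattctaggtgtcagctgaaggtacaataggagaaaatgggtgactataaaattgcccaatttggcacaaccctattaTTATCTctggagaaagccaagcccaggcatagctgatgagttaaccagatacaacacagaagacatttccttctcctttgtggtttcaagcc
AGATAA stands 31 bases before the start of Prss34 and 46 bases before that of Cpa3, and on the opposite strand (as TTATCT) it begins 92 bases before that of Fcer1a. The windows of Mcpt8 and Cma1 hold no such match, and 10.3% of 27025 promoter windows of this length hold 1 or more. Of the other 2 motifs searched on both strands, CACATG, which MITF can bind, is in the windows of Prss34 and Fcer1a and in 12.2% of all windows. TGTGGT, which RUNX factors can bind, is in those of Mcpt8, Cpa3 and Fcer1a and in 14.2% of all windows. The window of Mcpt4, not shown, holds 1 TGTGGT match and no match to AGATAA or CACATG. On the opposite strand CACATG reads CATGTG, whose end can overlap TGTGGT. A match is a description of the sequence.

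The libraries differed in depth and makeup along with treatment. Kept cells numbered 3033 and 4189 in the WT libraries (untreated, then imatinib) and 3032 and 5167 in the CML libraries. The median UMIs of cells outside both classes were 3636 and 5159 in the untreated and 1489 and 1196 in the imatinib libraries. The untreated files start at 1001 and 1006 UMIs per cell and the imatinib files at 200. Neutrophil marker genes (10 listed, such as S100a8 and Ngp) summed to 31.5 and 60.6 UMIs per 1000000 UMIs of the summed cells (CPM) in the untreated libraries. They summed to 6321 and 9473 CPM in the imatinib libraries, so treatment, depth and sort content cannot be told apart here. The WT libraries share 1135 cell names, against 80 to 340 for the other pairs of libraries, and no chosen cell shares its name with a chosen cell of another library. Cells of the same name were not alike, with a mean correlation of -0.016 to 0.01 across libraries.

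Chosen cells were found in 3 of the 4 libraries, and the 2 classes were divided unevenly among them. The WT untreated library had 0 of 3033 cells, which allows a share of up to 0.0989% by the limit of 3 counts, or 0.122% by the exact interval used for the other shares. Its highest cell had 0.129% of its UMIs from the proteases, 6 UMIs in all. The WT imatinib library had 118 cells (2.82%, 2.34 to 3.36), the CML untreated library 16 (0.528%, 0.302 to 0.856) and the CML imatinib library 185 (3.58%, 3.09 to 4.12). The imatinib libraries therefore held most of the chosen cells.

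Basophil-like cells numbered 106 in the WT imatinib library (2.53%, 2.08 to 3.05) and 97 in the CML imatinib library (1.88%, 1.52 to 2.29). The CML untreated library had 1. Mast-like cells numbered 12 in the WT imatinib library (0.286%, 0.148 to 0.5), 15 in the CML untreated library (0.495%, 0.277 to 0.815) and 88 in the CML imatinib library (1.7%, 1.37 to 2.09). The chosen cells of the WT imatinib library were thus mostly basophil-like, those of the CML untreated library mostly mast-like, and those of the CML imatinib library nearly even. With each cell thinned to 500 UMIs before the rule was applied, the 4 libraries had 0, 118, 13 and 189 chosen cells in the order given.

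**Figure D1:**
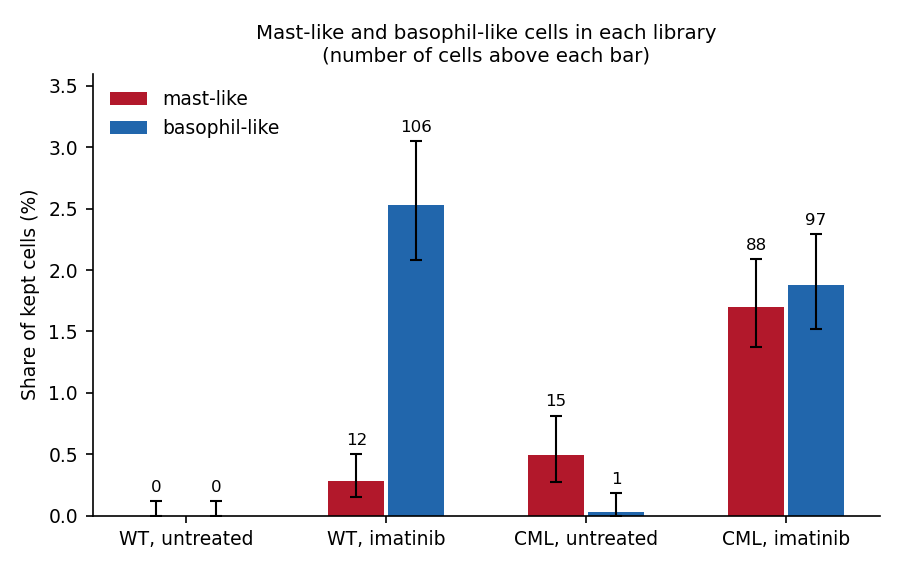
Share of kept cells (%, vertical axis) called mast-like or basophil-like in each of the 4 libraries, with exact binomial (Clopper-Pearson) 95% intervals as bars and the number of cells above each. Basophil-like cells stand at 106 and 97 in the imatinib libraries, and mast-like cells at 88 in the CML imatinib library.

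The 2 sets of proteases were read in the same cell in some cells, mostly with one set far in excess. UMIs of both sums were present in 3 of 12 mast-like and 1 of 106 basophil-like cells of the WT imatinib library, and in 10 of 15 mast-like cells of the CML untreated library. In the CML imatinib library they were present in 33 of 88 and 8 of 97. Among the chosen cells 1 had equal sums and counts as basophil-like. When the larger sum had to exceed the smaller 4-fold, 11, 14 and 84 mast-like cells and 105, 0 and 93 basophil-like cells were left in the WT imatinib library and both CML libraries (untreated, then imatinib). The lone basophil-like cell of the CML untreated library had 14 UMIs of Mcpt8 and 13 of Cma1 but 0 of Prss34. It also had 61 of Cpa3, 56 of Gzmb and 19 of Fcer1a. Levels of basophil-like cells given below are those of the imatinib libraries, without this cell.

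**Figure D2:**
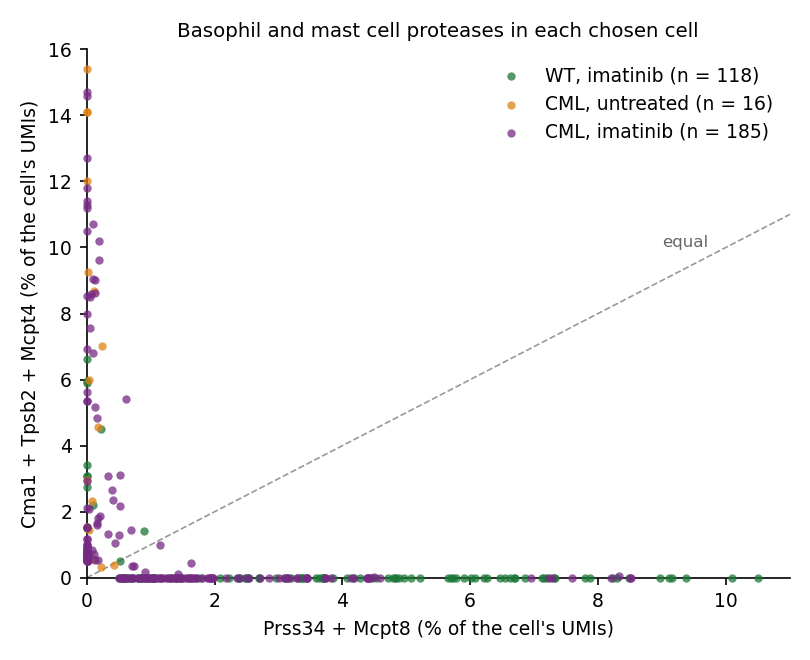
Each point is 1 of the 319 chosen cells, placed by the percentage of its UMIs from Prss34 and Mcpt8 (horizontal) and from Cma1, Tpsb2 and Mcpt4 (vertical), and coloured by library. The cells lie along the 2 axes, with few near the dashed line of equal sums.

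The threshold of 0.5% was crossed by a continuous run of cells. In the CML imatinib library 27 cells lay just under it (0.4 to 0.5%) and 24 just over it (0.5 to 0.6%). Just under it Cpa3 was at 1538, Mpo at 3913 and Elane at 5020 CPM, and just over it at 2288, 5294 and 5374 CPM. Cpa3 UMIs were in 11 of the 27 cells under it and in 15 of the 24 over it, so both sides held cells without Cpa3, and the neutrophil granule enzymes Mpo and Elane were high on both. In the WT imatinib library 4 and 3 cells lay in these ranges, and in the CML untreated library 1 and 1.

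Prss34, the basophil tryptase-like protease mMCP-11, was read almost wholly in basophil-like cells, at 35580 CPM in the WT imatinib and 20690 CPM in the CML imatinib library. In mast-like cells Prss34 was at 0, 0 and 15.3 CPM in the WT imatinib library and both CML libraries (untreated, then imatinib). Mcpt8, the basophil granzyme-like protease mMCP-8, was at 4927 and 3869 CPM in basophil-like cells. In mast-like cells Mcpt8 was lower but present, at 857, 542 and 849 CPM in the same order of libraries.

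Cma1, the chymase mMCP-5 of connective tissue mast cells, was at 26570, 38840 and 27070 CPM in mast-like cells and at 17.6 and 120 CPM in basophil-like cells. Tpsb2, a tryptase (mMCP-6), was at 5679, 23700 and 8333 CPM in mast-like cells. Mcpt4, a chymase (mMCP-4), was at 1179, 7095 and 1148 CPM there. Tpsb2 and Mcpt4 were thus highest in the mast-like cells of the CML untreated library, and both were at 0 UMIs in the basophil-like cells of the WT imatinib library. The chymases, like the tryptases, are near copies of one another, and how reads shared by several genes were counted has no statement in the labels. Over all kept cells of the WT untreated library, Prss34 had 1 UMI, Tpsb2 1, Mcpt4 1, Cma1 3 and Mcpt8 77.

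Genes outside the rule matched the cell type names well in the mast-like cells of 2 libraries but poorly in many of the CML imatinib library. Cpa3, the carboxypeptidase A3 of mast cell and basophil granules, was at 20040, 35080 and 30660 CPM in mast-like cells of the WT imatinib library and both CML libraries (untreated, then imatinib). In basophil-like cells Cpa3 was at 6086 (WT imatinib) and 5476 CPM (CML imatinib), and in all other kept cells of these 3 libraries at 53.3, 91.2 and 136 CPM. Cpa3 UMIs were in 12 of 12, 15 of 15 and 70 of 88 mast-like cells (79.5%, 69.6 to 87.4, in the last). In cells rich in neutrophil markers (at least 5% of UMIs), which should lack the gene, Cpa3 was in 1.59% (WT imatinib) and 1.27% (CML imatinib), with a median of 1008 and 1043.5 UMIs per cell.

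Of the 88 mast-like cells of the CML imatinib library, Fcer1a was in 46, Gata2 in 40 and Kit in 36. In the 39 of them with under 1% of UMIs from the rule proteases, Cpa3 was in 21, Fcer1a in 7, Gata2 in 8 and Kit in 9. Mpo and Elane were in 35 of the 39 cells each and S100a8, a neutrophil calcium-binding protein, in 25. Most of these 39 cells thus had no UMIs of Fcer1a, Gata2 or Kit, and their name rests mainly on the rule. Their markers were mixed, since Cpa3 was in 53.8% of them against 9.84% of the other kept cells of the library. Among those other cells, 79.2% had at least 0.5% of UMIs from Mpo, Elane, Prtn3 and Ctsg, so such RNA was common there too. In the 27 cells with at least 5%, Cpa3 was in 27, Fcer1a in 23, Gata2 in 20 and S100a8 in 2.

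Fcer1a, the IgE-binding chain of FcεRI, was at 2572, 7027 and 2357 CPM in mast-like and at 2788 and 1640 CPM in basophil-like cells. In the other kept cells of the 3 libraries Fcer1a was at 10.7, 11.8 and 14.6 CPM. Cells rich in neutrophil markers had 0 Fcer1a UMIs in both imatinib libraries (126 and 236 cells). Fcer1a UMIs were in 82.1% of basophil-like cells of the WT imatinib library and 61.9% of those of the CML imatinib library. After thinning to 500 UMIs per cell the shares were 63.5% (53.3 to 72.4) and 42.6% (32.3 to 52.7). So the gene was read well above background in both classes, and in fewer basophil-like cells of the CML imatinib than of the WT imatinib library.

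The 2 classes shared a set of genes that stood above the other cells of their libraries. Mean log2 ratios of class to other cells were averaged over libraries, with 10 CPM added to each side. A gene counts as higher or lower when it is at least 2-fold apart, with the same sign in every library used, and reaches 100 CPM and 50 UMIs on its higher side. Among 1926 genes, 145 (7.53%) were higher in mast-like cells and 608 (31.6%) lower, and the median of all was -0.73. Among 1883 genes, 144 (7.65%) were higher in basophil-like cells and 148 (7.86%) lower, and the median of all was -0.18. Scaled by TMM, which is less moved by a few abundant genes, the counts were 95 higher and 1298 lower for mast-like and 102 higher and 348 lower for basophil-like cells. These splits therefore depend on the scaling. TMM moved the median of all genes to -1.34 and -0.46. With the interval also excluding equal levels in every library, 94 genes were higher and 53 lower in mast-like cells. Without the CML untreated library 71 genes were higher in mast-like cells. Without the CML imatinib library 72 were higher in basophil-like cells, and without the WT imatinib library 89 were higher and 243 lower.

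Besides Cpa3 (8.15 mast-like, 5.91 basophil-like) and Fcer1a (7.30 and 6.58), Cyp11a1 was high in both classes, at 6.71 and 5.38. It encodes the enzyme that cleaves the side chain of cholesterol at the start of steroid synthesis. Cyp11a1 was at 1607, 1739 and 1530 CPM in mast-like cells and at 422 and 1111 CPM in basophil-like cells, against 3.47 to 10.8 CPM in other cells of these libraries. Cd200r3, an activating receptor of both cell types, was at 5.15 and 5.49 on the log2 scale. Gata2 was at 4822, 1559 and 1538 CPM in mast-like and at 2091 and 2390 CPM in basophil-like cells, and at 45 to 170 CPM in the other cells of the same libraries.

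Of the IgE receptor and signalling genes, 6 of 7 measured were higher in mast-like cells (Fcer1a, Ms4a2, Fcer1g, Lat2, Lcp2 and Inpp5d). In basophil-like cells 5 of 7 were higher, the same without Inpp5d, which encodes the phosphatase SHIP1. Of the genes for histamine, serotonin and lipid mediators, 4 of 6 were higher in mast-like cells (Hdc, Slc18a2, Tph1 and Alox5) and 4 of 4 in basophil-like cells (Hdc, Slc18a2, Alox5 and Alox5ap). Hdc, which makes histamine, was at 1071, 1774 and 1133 CPM in mast-like and at 791 and 1580 CPM in basophil-like cells. Over all genes 7.53% were higher in mast-like and 7.65% in basophil-like cells. For the IgE genes the interval excluded equal levels in every library used for 4 of the 6 and 4 of the 5. For the mediator genes it did so for all 4 in each class. The list medians were 2.98 and 2.54 (IgE signalling) and 4.08 and 2.84 (mediators), beside -0.73 and -0.18 over all genes.

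Markers of several other cell types were measured in both classes. The 8 progenitor markers summed to 1393, 2480 and 10090 CPM in mast-like cells of the WT imatinib library and both CML libraries (untreated, then imatinib) and to 8371 and 7766 CPM in basophil-like cells. Of the 2480 CPM, 1886 were Ctsg, the granule protease cathepsin G, with 136 of 219 UMIs in 1 cell. The 10 neutrophil markers summed to 429, 8.61 and 1048 CPM in mast-like and to 410 and 462 CPM in basophil-like cells. All 7 neutrophil markers measured of 10 listed were lower than in the other cells for both classes, beside 31.6% (mast-like) and 7.86% (basophil-like) of all genes. The interval excluded equal levels in every library for 7 of them in basophil-like and for 0 in mast-like cells. T cell markers summed to 0, 8.61 and 0 CPM in mast-like and 5.86 and 0 CPM in basophil-like cells. Eosinophil markers were at 0 UMIs in the mast-like cells of the WT imatinib and CML untreated libraries. Those markers summed to 84.2 CPM in mast-like cells of the CML imatinib library, and to 210.9 and 515.5 CPM in basophil-like cells of the 2 imatinib libraries, against 62.98 and 181.6 CPM in the other cells there. Part of that is Alox15, a lipoxygenase, at 170 and 147 CPM, and Prg2, the eosinophil major basic protein, at 17.6 and 321 CPM, of which 20 of 48 UMIs were in 1 cell. Alox15 counted as higher than in the other cells. Megakaryocyte and platelet markers summed to 515.5 and 569 CPM in basophil-like cells against 102.3 and 44.95 CPM in the other cells, most of it the integrin Itga2b, which counted as higher in both classes. Pf4 and Ppbp, which platelets release, were at 0 UMIs. Haemoglobin and other erythroid markers summed to 141 CPM at most. The part of RNA from other cells in these values was not tested.

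The genes of the sort markers were low in basophil-like cells. Ly6a, which encodes Sca1, was at 11.7 and 6.70 CPM in basophil-like cells of the WT imatinib and CML imatinib libraries and at 50 and 51.9 CPM in the other cells. In mast-like cells Ly6a was at 429 (4 UMIs), 215 and 38.3 CPM. Kit was at 99.6 and 67.0 CPM in basophil-like cells and at 176 and 135 CPM in the other cells. In mast-like cells Kit was at 1821, 1567 and 796 CPM in the WT imatinib library and both CML libraries (untreated, then imatinib). Kit UMIs were present in 11.3% and 6.19% of basophil-like cells, beside 12.7% and 4.24% of the cells rich in neutrophil markers. Thinned to 500 UMIs the Kit shares were 4.79% and 2.14% in basophil-like and 4.04% and 2.27% in those marker cells. The Kit reading of basophil-like cells was thus near that of the cells rich in neutrophil markers, which came from the same sort and are no known Kit-negative control. In basophil-like cells with at least 5% of UMIs from the rule proteases (33 in WT imatinib, 8 in CML imatinib) Kit had 0 UMIs. In those under 1% Kit was at 86.3 and 111 CPM. From 1 to 2% it was at 193 and 120 CPM, and from 2 to 5% at 166 and 0 CPM, in the same order.

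Mast-like and basophil-like cells were compared within the 2 imatinib libraries, which held at least 5 cells of each. Of 1091 genes outside the rule, 41 were higher in mast-like cells (3.76%) and 304 lower (27.9%), with a median of -0.56. TMM scaling gave 26 higher and 464 lower genes and a median of -1.12. Of those 304, 197 had 0 UMIs in the 12 mast-like cells of the WT imatinib library, whose 9333 UMIs cannot show a gene under about 321 CPM. With the counting interval excluding equal levels in both libraries, 33 were higher and 37 lower. Without the WT imatinib library 32 were higher and 77 lower, and without the CML imatinib library 4 and 239. With only cells of at least 1000 UMIs 24 were higher and 58 lower, in the CML imatinib library alone. The WT imatinib library then had 1 mast-like cell, too few to enter.

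Mast-like cells stood above basophil-like cells in a second set of granule and receptor genes. Gzmb, granzyme B, was at 10290 and 3933 CPM in mast-like cells of the WT imatinib and CML imatinib libraries and at 17.6 and 100 CPM in basophil-like cells, a mean log2 ratio of 6.85. Gzmb was also at 7009 CPM in the mast-like cells of the CML untreated library. Tph1, which starts serotonin synthesis, was at 643, 2669 and 995 CPM in the mast-like cells of the 3 libraries and at 0 UMIs in basophil-like cells. Slc18a2, the vesicular carrier that loads histamine and serotonin into granules, was at 2143 and 497 CPM against 199 and 154 CPM (log2 ratio 2.50).

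Of 6 cytokine receptor genes measured, 3 were higher in mast-like cells (Kit, Il1rl1 and Csf2rb2) and 1 lower (Crlf2). Their median was 1.56, beside -0.56 over all genes, of which 3.76% were higher and 27.9% lower. Il1rl1, the receptor of interleukin 33, was at 1393 and 995 CPM in mast-like and 99.6 and 127 CPM in basophil-like cells, a log2 ratio of 3.27. Kit was higher by 3.73. Id2, an inhibitor of basic helix-loop-helix factors, was higher by 4.90, and Socs2, a feedback inhibitor of STAT signalling, by 3.8. Tpsab1, the tryptase mMCP-7, and Mrgprb2, the mast cell receptor of basic secretagogues, had no UMIs in basophil-like cells. In mast-like cells Tpsab1 was at 536, 1206 and 291 CPM and Mrgprb2 at 536, 689 and 230 CPM.

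**Figure D3:**
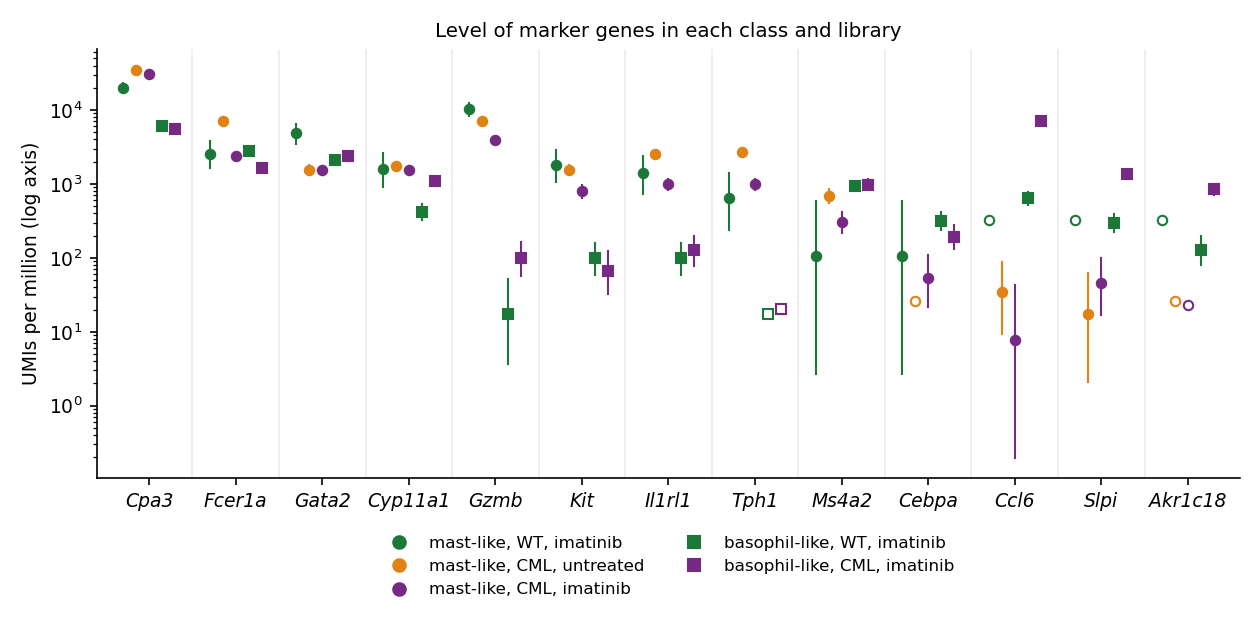
Level (CPM, log axis) of 13 genes outside the rule in mast-like (circles) and basophil-like cells (squares) of each library, with exact Poisson 95% intervals. Open symbols mark 0 UMIs and stand at the limit of 3 UMIs. Gzmb, Kit, Il1rl1 and Tph1 are higher in mast-like cells, and Ccl6, Slpi and Akr1c18 in basophil-like cells.

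On the basophil side the chemokine Ccl6 led, with 638.5 and 6996 CPM in the WT imatinib and CML imatinib libraries. In mast-like cells Ccl6 had 0 UMIs in the WT imatinib and 1 UMI in the CML imatinib library. In the CML imatinib library its log2 ratio of mast-like to basophil-like cells was -8.63. Of 6 cytokine and chemokine genes measured, 3 were lower in mast-like cells (Ccl3, Ccl6 and Ccl9), beside 27.9% of all genes, with a list median of -2.07. The interval excluded equal levels in both libraries for 1 of the 3. Cdh1, which encodes E-cadherin, was at 668 and 442 CPM in basophil-like cells and at 107 (1 UMI) and 0 CPM in mast-like cells. Id1 was at 93.7 and 268 CPM in basophil-like cells and at 0 UMIs in mast-like cells of all 3 libraries.

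Ms4a2, the β chain of FcεRI, was at 949 and 977 CPM in basophil-like and at 107 and 306 CPM in mast-like cells, whereas Fcer1a was at like levels in the classes (log2 ratio 0.20). Of 10 transcription factor genes measured, 5 were lower in mast-like cells (Cebpa, Cebpb, Runx1, Lmo4 and Id1) and 1 higher (Id2), beside 27.9% and 3.76% of all genes. The interval excluded equal levels in both libraries for 1 of the 5. Cebpa, a factor of granulocyte differentiation, was at 316 and 194 CPM in basophil-like and at 107 (1 UMI) and 53.6 CPM in mast-like cells. Mitf, a factor of mast cells, was at 107 (1 UMI), 267 and 38.3 CPM in mast-like cells and at 0 UMIs in basophil-like cells. The list median was -0.88, near the -0.56 of all genes.

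Many chosen cells also carried RNA of neutrophil granule enzymes. At least 0.5% of UMIs came from Mpo, Elane, Prtn3 and Ctsg in 0 of 12, 1 of 15 and 43 of 88 mast-like cells of the WT imatinib library and both CML libraries (untreated, then imatinib). The same held for 63 of 106 (59.4%, 49.5 to 68.9) and 31 of 97 (32.0%, 22.9 to 42.2) basophil-like cells. Among the other cells of the 3 libraries the shares were 79.2%, 17.9% and 79.2%. These enzymes were thus common in the imatinib libraries at large and less common in the chosen cells. Whether single droplets held 2 cells was not tested. Without the 5% of cells with the most UMIs, 178 of 185 chosen cells of the CML imatinib library and 117 of 118 of the WT imatinib library were kept.

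Within the CML imatinib library the enzyme RNA was highest in the cells with the lowest share of the rule proteases. Mast-like cells were divided at 1, 2 and 5% of UMIs, giving 39, 12, 10 and 27 cells from the lowest to the highest share. Cpa3 was at 2668, 29170, 42810 and 64360 CPM in that order, and Fcer1a at 291, 2161, 3587 and 4734 CPM. Mpo was at 4566, 2327, 231 and 140 CPM and Elane at 6361, 2742, 57.9 and 140 CPM. Cpa3 was read in 53.8% of the cells of the lowest range and in 100% of the others. So the mast-like cells of this library ran from cells high in Mpo and Elane to cells high in Cpa3 and Fcer1a. In this library the rule proteases gave at most 14.7% of the UMIs of a cell.

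Basophil-like cells of the same library followed a like order in 21, 38, 30 and 8 cells. Mpo was at 4615, 2153, 1339 and 730 CPM, and Elane at 4893, 1615, 172 and 0 CPM. Cpa3 was at 3197, 2911, 8302 and 11220 CPM. In basophil-like cells both enzymes were thus lowest where the rule proteases were highest. In mast-like cells this held for Mpo. Elane there was lower from 2 to 5% (57.9 CPM, 1 UMI) than from 5% up (140 CPM, 6 UMIs). These ranges were cut by the rule's own measure and are a description.

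**Figure D4:**
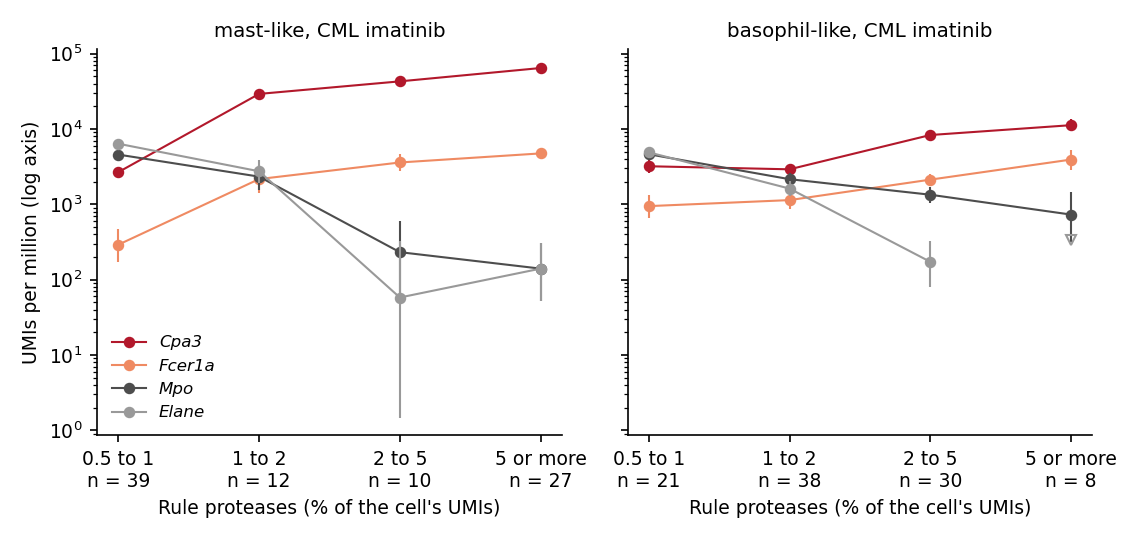
Level (CPM, log axis) of Cpa3, Fcer1a, Mpo and Elane in chosen cells of the CML imatinib library, divided by the percentage of their UMIs from the rule proteases. Bars are exact Poisson 95% intervals, and the open triangle marks 0 Elane UMIs at the upper end of its interval (336.4 CPM). In mast-like cells (left) Mpo goes from 4566 to 140 and Cpa3 from 2668 to 64360, and in basophil-like cells (right) Mpo goes from 4615 to 730.

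Transcripts of the cell cycle were read in many basophil-like cells. After thinning each cell to 500 UMIs, the expected share with at least 2 UMIs from 20 such genes was 51.1% (41.0 to 60.8) in basophil-like cells of the WT imatinib library. It was 36.8% (27.5 to 47.5) in those of the CML imatinib library. In the other cells of these libraries the share was 35.2% and 37.2%. Unthinned, the basophil-like shares were 71.7% and 50.5%. In mast-like cells the thinned share was 6.69% (0.211 to 38.5) of 12 cells, 1.61% (0 to 21.8) of 15 cells and 29.7% (20.3 to 40.2) of 88 cells, in the usual order of libraries.

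For 20 S phase genes the thinned share in basophil-like cells was 40.2% (31.1 to 50.5) in the WT imatinib and 25.8% (17.4 to 35.7) in the CML imatinib library. The other cells of these libraries had 45.3% (43.7 to 46.8) and 43.7% (42.4 to 45.1). In mast-like cells the S phase share was 26.8%, 5.91% and 27.6%. The G2 and M share of basophil-like cells was thus at or above that of other cells while the S phase share was below it in the CML imatinib library.

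The mast-like cells of the CML imatinib library were not uniform in this respect. The 37 with at least 2% of UMIs from the rule proteases had a thinned G2 and M share of 7.07% (1.7 to 21.9). The 51 below 2% had 46.1% (32.9 to 61.5), together with the higher Mpo and Elane given above. Of the 10 G2 and M genes measured between the classes, all 10 were lower in mast-like cells, beside 27.9% of all genes, with a list median of -2.92 beside -0.56. Of the 20 listed genes 19 were at 0 UMIs in the 12 mast-like cells of the WT imatinib library, too shallow to show them. The interval excluded equal levels in both libraries for 1 of them. Top2a, the topoisomerase of dividing cells, was at 1060 and 1165 CPM in basophil-like cells. It was at 214 (2 UMIs), 8.61 (1 UMI) and 612 CPM in mast-like cells.

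Basophil-like cells of the CML imatinib and WT imatinib libraries could be compared in depth, with 149375 and 170709 UMIs. Of 565 genes, 31 were at least 2-fold higher in the CML imatinib library (5.49%) and 16 lower (2.83%). The median over all 565 was -0.03 on the log2 scale. Markers of the class differed to unequal degrees. Cpa3 had a log2 ratio of -0.15 (-0.29 to -0.02) and Gata2 of 0.19 (-0.02 to 0.41), and Fcer1a was lower by 1.7-fold (1.45 to 1.99). Prss34, which the rule used, was lower by 1.72-fold, and Cyp11a1 was higher by 2.63-fold (1.99 to 3.52). No transcription factor of the 7 measured and none of the 6 granule and secretion genes measured was past 2-fold.

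Of 6 cytokine and chemokine genes measured, 5 were higher in the CML imatinib library (Ccl3, Ccl4, Ccl6, Ccl9 and Osm), beside 5.49% of all genes. The list median was 2.36, beside -0.03. These differences depend on which cells enter, and among cells with Cpa3 UMIs Ccl9 was lower there (460 against 526 CPM). Ccl6, a chemokine of myeloid cells, was 11-fold higher (8.99 to 13.5), at 6996 against 638.5 CPM, and was read in 47 of 97 and 16 of 106 cells. Ccl3, a chemokine that draws in leukocytes, was 5.8-fold higher (3.24 to 11.1). Osm, the cytokine oncostatin M, was 4.57-fold higher (2.66 to 8.3). Among the cells with Cpa3 UMIs of the CML imatinib library, 26 of 39 Ccl3 and 17 of 27 Osm UMIs were in 1 cell each. Ccl4 was 19.9-fold higher (8.2 to 62.8), but 59 of its 87 UMIs were in 1 cell.

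Other genes higher in basophil-like cells of the CML imatinib library were S100a6, a calcium-binding protein, by 8.76-fold (5.97 to 13.3), and Slpi, an inhibitor of granule proteases, by 4.53-fold (3.31 to 6.28). Akr1c18, a steroid dehydrogenase, was 6.6-fold higher (4.17 to 10.9), Thy1 4.63-fold and Furin 3.96-fold. Rnf128, an E3 ubiquitin ligase, had 61 UMIs in 14 cells against 1 UMI, a ratio of 69.7 (12.1 to 2800). Lower genes were Ctse, cathepsin E, by 5.74-fold (3.38 to 10.4), Lpcat2 by 4.3-fold (2.22 to 9.11) and Hspa1b, a heat shock protein, by 3.41-fold. Pecam1, Ets1 and Ccr1 were lower by 2.9, 2.89 and 2.83-fold. The other named genes that were lower (E2f8, Fam129a, Evi2b and Csgalnact2) lay between 2.15 and 2.68-fold.

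Cells without Cpa3 UMIs held much of the difference, a division chosen after the values were seen. Cpa3 UMIs were in 101 of 106 basophil-like cells of the WT imatinib library (95.3%, 89.3 to 98.5) and in 63 of 97 of the CML imatinib library (64.9%, 54.6 to 74.4). Thinned to 500 UMIs, the shares were 85.0% and 58.4%. With only cells that had a Cpa3 UMI, 10 genes were higher in the CML imatinib library, in place of 31, and with only cells of at least 2% rule proteases 6 were. Thus the count of higher genes depends on which basophil-like cells enter, while 20 and 17 genes were lower under the same choices. With every chosen cell thinned to 500 UMIs, which leaves fewer genes with 50 UMIs, 11 were higher and 2 lower.

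The 34 basophil-like cells of the CML imatinib library without Cpa3 had a median of 836.5 UMIs, and the 63 with it 1444. Without Cpa3, Ccl6 was at 21700 CPM, against 2270 CPM with it and 652 CPM in Cpa3 cells of the WT imatinib library. Ccl9 followed with 4120, 460 and 526 CPM, and S100a6 at 4480, 593 and 173 CPM. Ccl3 was at 880, 345 and 83.7 CPM. Ccl6, Ccl9 and S100a6 were thus further apart between the sets of the CML imatinib library than Ccl3. The 5 WT imatinib cells without Cpa3, with 3458 UMIs in all, had 0 UMIs of Ccl6 and Ccl3 and 16 of Ccl9. Akr1c18 was at 3130 CPM without and 115 CPM with Cpa3, Slpi at 3880 and 540 CPM, Hgf at 1840 and 195 CPM, and Rnf128 at 1650 and 8.85 CPM. With Cpa3 cells alone, the log2 ratio of Akr1c18 between the libraries was -0.19, and Ccl9 was also lower in the CML imatinib library (460 against 526 CPM), as was Hgf (195 against 227 CPM).

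Further genes of this division were picked after their values were seen. Hdc was at 3380 CPM without and 1000 CPM with Cpa3, and Cyp11a1 at 2640 and 619 CPM. Cd200r3 was at 1730 and 363 CPM, and Ifitm1, an interferon-induced gene known from basophils, at 3820 and 593 CPM. Hdc, Cd200r3 and Ifitm1 are themselves basophil markers, so markers of the class did not behave alike. Others were closer: Fcer1a was at 1180 and 1790 CPM, Mcpt8 at 2780 and 4220 CPM and Gata2 at 2560 and 2340 CPM. Ms4a2 was at 742 and 1050 CPM, and Prss34, which the rule used, at 11700 and 23600 CPM. Progenitor genes were lower without Cpa3. Mpo was at 1040 and 2780 CPM, Ctsg at 907 and 2340 CPM, Plac8 at 1920 and 4580 CPM, Myb at 110 and 416 CPM and Igfbp4 at 82.5 and 513 CPM. Cd34, a progenitor surface marker, was at 0 UMIs without Cpa3 and at 106 CPM with it.

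**Figure D5:**
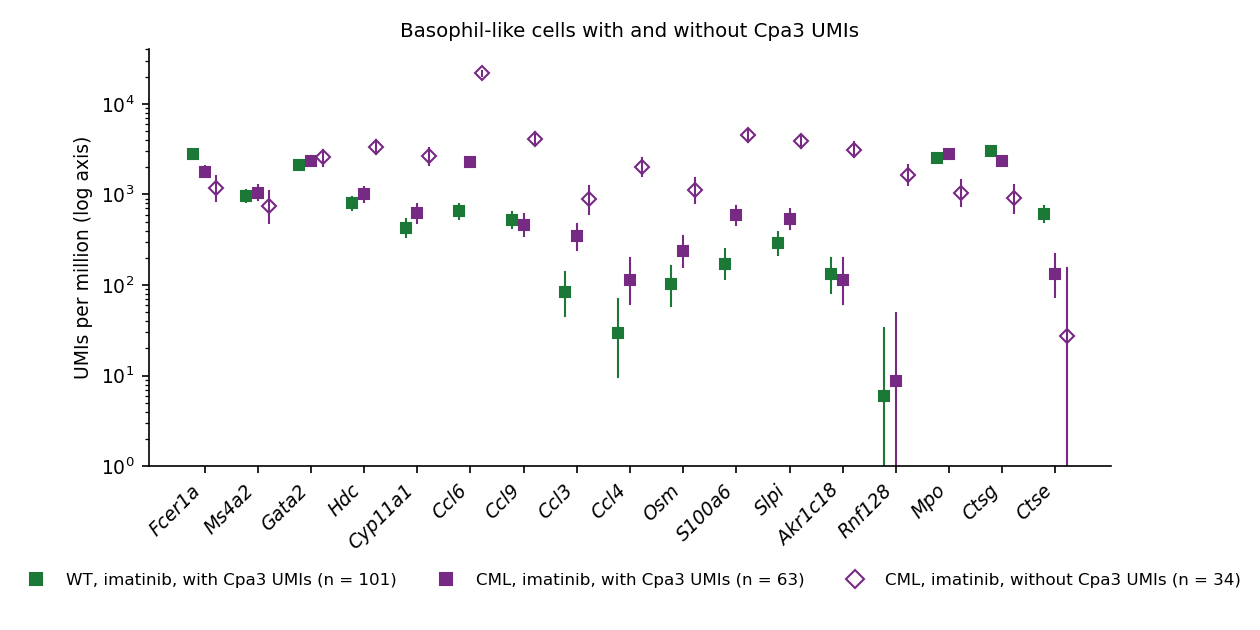
Level (CPM, log axis) of 17 genes in basophil-like cells with Cpa3 UMIs (squares) of the WT imatinib and CML imatinib libraries and without them (open diamonds) in the CML imatinib library, with exact Poisson 95% intervals. Ccl6 stands at 21700 in the cells without Cpa3 and at 2270 and 652 in those with it, and Rnf128 at 1650 without Cpa3 and 8.85 with it in the CML imatinib library.

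Mast-like cells of the CML imatinib library (88 cells, 130680 UMIs) and the CML untreated library (15 cells, 116130 UMIs) had like levels of some leading markers and not of others. Cpa3 differed by a log2 ratio of -0.19 (-0.26 to -0.13) and Gata2 by -0.02 (-0.32 to 0.28). Among 404 genes measured, 63 (15.6%) stood at least 2-fold higher in the CML imatinib library and 84 (20.8%) lower, and the median of all was 0.04. With each cell thinned to 500 UMIs, which leaves the 15 cells with too few UMIs for a gene to count as lower, 26 were higher and 0 lower. Mpo, Elane and Prtn3 had the largest ratios. Of 6 granulocyte-monocyte progenitor genes measured, 4 were higher (Mpo, Elane, Prtn3 and Ms4a3).

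Mpo was at 2334 CPM in the mast-like cells of the CML imatinib library and at 8.61 CPM (1 UMI) in those of the CML untreated library, a ratio of 271 (48.3 to 10700). Elane was at 3153 and 17.2 CPM and Prtn3 at 1530 and 8.61 CPM. The other cells of the 2 libraries differed in the same direction, with Mpo at 4764 and 652 CPM and Elane at 6899 and 985 CPM. The part of this surrounding difference in the mast-like result was not tested. With only cells of at least 2% rule proteases 15 genes were higher in place of 63, and the log2 ratio of Mpo was 3.96. Top2a was higher by 71.1-fold (12.4 to 2840), Hmgb2, a chromatin protein of dividing cells, by 8.59-fold and Cks1b by 7.62-fold. Clec12a and Gsr had 1 UMI each in the CML untreated library and were higher by 52.4-fold (9.05 to 2110) and 47.1-fold (8.1 to 1890). Ms4a3 and S100a8 had 0 UMIs there and were at least 18.4-fold and 17.2-fold higher, counting from a floor of 3 UMIs.

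Genes lower in the mast-like cells of the CML imatinib library included mast cell genes and immediate early genes. Of 6 mast cell proteases measured outside the rule, 4 were lower (Cma2, Mcpt1, Mcpt2 and Tpsab1), beside 20.8% of all genes. Of the 80 Cma2 UMIs of the mast-like cells of the CML untreated library 52 were in 1 cell. Tpsab1 was lower by 4.15-fold (2.88 to 6.1). Mcpt1 and Mcpt2, the mucosal chymases, were lower by 170-fold and 131-fold, but 298 of 302 UMIs of Mcpt1 and 201 of 232 of Mcpt2 were in 1 cell each of the CML untreated library. Of 5 IgE signalling genes measured, 3 were lower (Fcer1a, Ms4a2 and Inpp5d), beside the same 20.8%. Fcer1a was lower by 2.98-fold (2.61 to 3.41), Tph1 by 2.68-fold and Il1rl1 by 2.57-fold. Mrgprb2 was lower by 3.0-fold (1.95 to 4.73). With only cells of at least 2% rule proteases the log2 ratio of Fcer1a was -0.84, in place of -1.58.

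All 10 immediate early genes measured were lower, beside 20.8% of all genes, with a list median of -2.67 beside 0.04. Egr1 was at 1714 CPM in mast-like cells of the CML untreated library and at 76.5 CPM in those of the CML imatinib library, lower by 22.4-fold (11.9 to 47.4). Zfp36, which degrades cytokine messenger RNA, was at 4004 and 329 CPM. The other cells of these libraries differed in the same direction, with Egr1 at 818 and 30.6 CPM and Zfp36 at 2184 and 232 CPM, and the WT untreated library had Egr1 at 419 CPM. Rgs1, Tnfaip3, Nfkbiz and Ppp1r15a were lower by 22.1, 11, 10.9 and 26.2-fold. Xist was at 2187 and 0 CPM in the mast-like cells and at 2375 and 101 CPM in the other cells of these 2 libraries, at least 95.3-fold lower. Xist is the RNA that coats the inactive X chromosome, and the labels used here do not give the sex of the mice. The part of these surrounding differences in the mast-like result was not tested.

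The chemokines Ccl2 and Ccl4 were lower in the mast-like cells of the CML imatinib than of the CML untreated library. Ccl2, which draws in monocytes, was at 107 (1 UMI), 1162 and 260 CPM in the WT imatinib library and both CML libraries (untreated, then imatinib) and had 0 UMIs in basophil-like cells of the imatinib libraries. In the other cells of the 3 libraries Ccl2 was at 0.372 to 2.48 CPM. Of its 135 UMIs in the CML untreated library 70 were in 1 cell. Ccl4 stood at 1033 CPM without imatinib, with 60 of 120 UMIs in 1 cell, and at 68.9 CPM in the CML imatinib library.

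The 12 mast-like cells of the WT imatinib library gave 9333 UMIs, too few for most genes. Of 319 genes compared with the CML imatinib library, 99 were higher in the latter (31.0%) and 2 lower (0.627%), with a median of 0.48, or 1.85 after TMM scaling. Of the 99, the interval excluded equal levels for 49. The 2 lower genes were Serinc3, by 2.7-fold (1.98 to 3.62), and Gzmb, by 2.62-fold (2.08 to 3.26). After TMM scaling the log2 ratio of Gzmb was 0.03, so its direction rests on the scaling. Of 5 progenitor genes measured, 4 were higher in the CML imatinib library (Mpo, Elane, Prtn3 and Ctsg). Elane was 7.36-fold higher (2.85 to 27.1), Mpo 5.45-fold (2.11 to 20.1), Prtn3 had 200 UMIs against 1, and Ctsg had 254 against 0. With only cells of at least 2% rule proteases the log2 ratio of Elane was -1.77, in the other direction.

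Against the CML untreated library, 1 of 309 genes was higher in the WT imatinib mast-like cells (0.324%) and 93 were lower (30.1%), with a median of -0.48, or -1.88 after TMM scaling. The interval excluded equal levels for 53 of the 93. Ctsc, which activates granule proteases, was lower by 9.7-fold (3.29 to 47.2), and Slc7a8, an amino acid carrier, had 1 UMI against 250. Egr1 had 1 UMI against 199. The 1 higher gene was Gm42418, an unnamed gene model given here only because it is the single one. Gzmb rested on 96 UMIs in these 12 cells and Fcer1a on 24, whereas Kit rested on 17.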

How the data were processed

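Single cells of 4 inDrop libraries were analysed from the deposited tables, whose values are a normalised signal per gene and cell, per the file headers and values. The authors scaled each cell to the same total (a median of 2839.18). The submitters' processing notes name Bowtie 1.1.1, Partek 8.0 and the build GRCm38, and filters and the handling of UMIs are not given in the sources used here. Division by the smallest non-zero value of a cell gave whole numbers for 100% of values (tolerance 0.02 of a count), and these were used as UMIs, with totals of 13157137 and 8728529 in the WT tables (untreated, then imatinib) and 21283108 and 10265654 in the CML tables. Gene symbols are those of the 32265 genes listed.

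The members and gene lists were chosen with earlier results of these data known. Cells with at least 500 UMIs and at most 20% mitochondrial UMIs were kept, no doublet caller was run, and UMIs were summed per class and library into CPM. Contrasts within a library used log2 ratios with 10 CPM added, averaged over libraries with at least 5 cells and 5000 UMIs in each class. Contrasts between libraries used CPM ratios with exact conditional binomial intervals, and 0 UMIs were replaced by a floor of 3. With 1 library per group no test was run, and count models such as edgeR's test were not applied. The text names the 14 highest and 14 lowest genes between the classes as candidates, 10 at each end between libraries, 12 highest against other cells, the rule genes, Cpa3, Fcer1a and members of 28 lists, leaving out Gm and Rik models, ribosomal and mitochondrial genes. Further genes of the Cpa3 division were named after their values were seen. Shares thinned to 500 UMIs are hypergeometric expectations with Clopper-Pearson intervals on the rounded count. In simulated data with 4-fold changes, run on 32265 genes, 160 of 160 changed genes that could be measured were recovered between the basophil-like classes. Between the CML mast-like classes 141 of 141 were recovered. Of the unchanged genes measured, 3 of 400 and 0 of 228 counted as changed. The simulated counts had no variation between cells, so they cannot show how genes with UMIs in few cells behave. Python 3.11.15, numpy 2.4.6, scipy 1.17.1, pandas 2.3.3 and, for TMM, edgeR 4.0.16 were used.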

Additional observations from a re-analysis of the deposited data

Results flagged for a closer look

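For 6 listed genes the mast-like to basophil-like difference had opposite signs in the 2 imatinib libraries, and the difference between the libraries was not tested. Ccl4 had a log2 ratio of 5.33 in the WT imatinib and -3.08 in the CML imatinib library, with 9 of 11 mast-like UMIs of the former in 1 cell. Lcp2, an adaptor of IgE receptor signalling, had 3.32 and -2.16, and Csf2rb, the shared chain of the interleukin 3 and 5 receptors, 2.65 and -1.04. Cd53 had 1.4 and -1.46, Gata2 1.21 and -0.64, and Fcer1g, the γ chain of FcεRI, 0.9 and -0.4. In each case the WT imatinib value rests on 12 mast-like cells with 9333 UMIs.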

How the results depend on the processing

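Of 432 values that answer a comparison, computed under the alternatives, 347 stayed within 1.5 times or the counting interval and 85 moved. The cause of each change was not tested except where fewer cells or genes enter. The share of both classes together was larger in each imatinib library than in each untreated library under every alternative run; for mast-like cells alone it was not, with 0.286% in WT imatinib and 0.495% in CML untreated. No paired analysis was possible because each group has 1 library and the labels carry no replicate numbers.

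With at least 1000 UMIs per cell, mast-like cells numbered 1 in the WT imatinib and 40 in the CML imatinib library, where basophil-like cells numbered 50 and the chosen share was 2.92%. In the CML imatinib library alone, mast-like cells then had 24 genes higher and 58 lower than basophil-like cells. With no minimum the CML imatinib library had 146 mast-like cells, and 2 genes were higher in WT imatinib than in CML untreated mast-like cells, as with at most 10% mitochondrial UMIs (2). At a threshold of 0.25% the CML imatinib library had a share of 5.23% and 154 mast-like cells, and the CML untreated library 2 basophil-like cells. Genes higher in mast-like cells were then 189 (CML imatinib over CML untreated) and 3 (WT imatinib over CML untreated). At 1% the CML imatinib share was 2.42% with 49 mast-like cells, the CML untreated library had 0 basophil-like cells, and 22 genes were higher in CML imatinib than in CML untreated mast-like cells. Against WT imatinib 51 were higher and 1 lower. At 2% the shares were 1.91% (WT imatinib, 70 basophil-like cells) and 1.45% (CML imatinib, 37 mast-like and 38 basophil-like), with 0 basophil-like cells in the CML untreated library. Then 277 genes were lower in basophil-like than in other cells and 6 were higher in CML imatinib than in WT imatinib basophil-like cells. In mast-like cells 15 were higher over CML untreated, 37 higher and 0 lower against WT imatinib, and 0 higher in WT imatinib over CML untreated.

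With cells thinned before the rule, or a 4-fold excess of 1 protease sum, the CML untreated library had 0 basophil-like cells. Thinning before the rule gave 1 gene lower in CML imatinib than in WT imatinib mast-like cells and 2 higher in WT imatinib than in CML untreated ones. The next 3 alternatives were chosen after seeing the data. Only cells with a Cpa3 UMI gave 63 basophil-like cells and a share of 2.57% in the CML imatinib library and 10 genes higher between basophil-like cells. Without cells of 0.5% granule enzyme UMIs the shares were 1.31% (WT imatinib, 43 basophil-like cells) and 2.15% (CML imatinib, 45 mast-like cells). Genes lower were then 182 (mast-like against basophil-like), 277 (basophil-like against other cells) and 5 (CML imatinib against WT imatinib basophil-like cells). In CML imatinib mast-like cells 19 were higher over CML untreated, and 43 higher and 1 lower against WT imatinib. With intervals required to exclude equal levels, 37 genes were lower in mast-like than in basophil-like cells, 94 higher and 53 lower in mast-like than in other cells, 49 higher in CML imatinib than in WT imatinib and 53 lower in WT imatinib than in CML untreated mast-like cells.

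TMM scaling gave 26 genes higher and 464 lower in mast-like against basophil-like cells. It gave 95 higher and 1298 lower in mast-like and 348 lower in basophil-like against other cells. In mast-like cells 244 were higher and 0 lower in CML imatinib against WT imatinib, and 0 higher and 253 lower in WT imatinib against CML untreated. Against other cells, the genes lower in mast-like and basophil-like cells were 1283 and 334 at a minimum of 50 CPM and 258 and 61 at 200 CPM, and 93 in basophil-like cells with 50 CPM added. UMIs summed over all libraries gave 134 genes higher in mast-like than in basophil-like cells. Chosen cells thinned to 500 UMIs gave 8 higher and 65 lower there, 11 and 2 between basophil-like cells, 26 and 0 for CML imatinib against CML untreated, 36 and 0 against WT imatinib, and 0 and 1 for WT imatinib against CML untreated mast-like cells. Without the WT imatinib library 77 genes were lower in mast-like than in basophil-like cells, and without the CML imatinib library 4 were higher. With both libraries 304 were lower and 41 higher. Against other cells, leaving out each library in turn gave 71 to 154 higher and 497 to 788 lower in mast-like cells. In basophil-like cells leaving out either imatinib library gave 72 and 89 higher and up to 243 lower. With both libraries 144 were higher and 148 lower.

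Of 2479 values of single genes computed under the alternatives, 9 changed direction. This was counted only for genes that counted as higher or lower in the main run. A further 296 values moved outside the counting interval or the spread between libraries. Between CML imatinib and WT imatinib mast-like cells, Tuba1b was at -0.35 and Cox7c at -0.18 (log2) with the 0.25% threshold, and at -0.23 and -0.27 with thinning before the rule. Elane was at -1.77 at the 2% threshold and at -1.82 without granule enzyme cells, and Gzmb at 0.12 at 2% and at 0.03 with TMM. Akr1c18 was at -0.19 between basophil-like cells with a Cpa3 UMI. Depth limits the 12 WT imatinib mast-like cells most, where 0 UMIs allow up to 321 CPM.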

Other observations

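The share of each library's UMIs that fell in chosen cells differed by gene. The chosen cells held 98.2% of all Prss34 UMIs of the WT imatinib library and 94.9% of those of the CML imatinib library. They held 74.0%, 68.2% and 79.3% of the Cpa3 UMIs and 52.5%, 4.79% and 53.4% of the Gata2 UMIs of the 3 libraries with chosen cells, in the order used above. They held 2.34%, 5.9% and 8.35% of the Kit UMIs. Itga2b was at 857, 370 and 199 CPM in mast-like and at 498 and 562 CPM in basophil-like cells.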
